A study of Mus musculus with 52 samples.

Results

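The genes described are 9 members of the NF-kB pathway: the inhibitors and brakes Tnip1, Tnip2, Tnfaip3, Nfkbia and Nfkbib, and the subunits Nfkb1, Nfkb2, Rela and Relb. They were taken by name from the 48526 gene identifiers of the 3 deposited expression tables, and all 9 were found. The libraries come from mice lacking miR-146a (KO) and wild-type mice (WT), and hold poly-A RNA of brain tissue. At embryonic day 14 (E14) the whole cortex was sampled in 5 KO and 4 WT libraries. At postnatal day 30 (P30) the amygdala, the frontal cortex and the hippocampus were each sampled in 4 KO and 4 WT libraries. At postnatal day 60 (P60) the amygdala and the frontal cortex were each sampled in 4 KO and 3 WT libraries and the hippocampus in 2 KO and 3 WT libraries. The labels used here name no strain, sex or treatment and do not say how the KO allele was made, and the series' text says that the mice had different mothers.

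NF-kB proteins are transcription factors that work as pairs of subunits. In resting cells, inhibitor proteins of the IkB family hold the pairs in the cytoplasm, and signals from Toll-like, interleukin-1 and TNF receptors free them by having the IkB proteins destroyed. Activated NF-kB turns on the genes of several of its own inhibitors, and it turns on Mir146, whose product targets the adaptors Traf6 and Irak1 upstream. In the brain the pathway is best known from microglia, astrocytes and endothelium, and in neurons it is linked to synaptic activity.

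The sequences below show the miRNA that the KO mice lack, its close relative, and promoter stretches of members in which a kappaB motif, the DNA element that NF-kB binds, was found. The mature miRNA sequences are from RefSeq (GRCm38.p6), and capitals mark the seed, bases 2 to 8. The Mir146 gene lies on chromosome 11 (43374397 to 43374461, GRCm38), and miR-146b-5p comes from Mir146b on chromosome 19, 30377 bases past the end of Nfkb2. The 2 miRNAs share the seed and differ at 2 of 22 bases.
mmu-miR-146a-5p: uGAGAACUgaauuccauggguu
mmu-miR-146b-5p: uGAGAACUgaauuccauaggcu

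The longest annotated 3' UTR of each member was searched for matches to that seed, AGTTCTC or GTTCTCA, on the transcript strand. A match was present in 1 of 9 members, Nfkbib, against 18.1% of 20956 genes with a 3' UTR, and the known targets Traf6 and Irak1 held 4 and 3. The Nfkbib match lies on chromosome 7 (28758861 to 28758884, minus strand, GRCm38), with the match in capitals.
Nfkbib 3' UTR site: cttctctcaggcttgGTTCTCAgg

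Promoter windows of 300 bases (250 before the start of transcription and 50 after it, RefSeq, GRCm38.p6) were at hand for 7 of the 9 members, all but Nfkb1 and Relb. They were searched on both strands for the 10-base kappaB consensus. Some of the 7 have several starts, and 6 of their 10 windows held it, against 8.46% of 32851 windows of that length. Tnip1, Tnfaip3, Nfkbia and Nfkb2 held it, and Tnip2, Nfkbib and Rela did not. Nfkb2 gave several of the 6 windows, and its windows 2 and 3 overlap and share a motif. A match is a stretch of letters and not a measured binding site. The stretches are printed on the gene's strand with the motif, or 2 overlapping motifs, in capitals. The Tnip1 motif lies 58 to 47 bases before the start (stretch chr11:54962962-54963023), the Nfkbia motif 29 to 20 bases before it (chr12:55492648-55492707), the nearer Tnfaip3 motif 12 to 3 bases before it (chr10:19015411-19015470) and the further of 2 motifs at the first Nfkb2 start 39 to 29 bases before it (chr19:46304673-46304733). The nearer Nfkb2 motif, 11 to 2 bases before the start, runs past the end of the printed stretch and is not in capitals.
Tnip1: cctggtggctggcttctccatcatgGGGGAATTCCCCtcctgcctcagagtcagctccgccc
Nfkbia: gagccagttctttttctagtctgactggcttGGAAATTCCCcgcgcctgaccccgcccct
Tnfaip3: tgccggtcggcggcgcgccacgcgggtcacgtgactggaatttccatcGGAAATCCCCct
Nfkb2: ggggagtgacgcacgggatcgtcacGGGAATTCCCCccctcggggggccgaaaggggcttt

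The deposited values behave as RPM, a gene's reads scaled to a common, normalised library size, and 1 library holds 2933026 to 9469214 reads in genes. Poly-A libraries do not check the deletion: the Mir146 gene had 1 read in 1 of the 52 libraries. All 10 neuronal markers were detected in every group. By Xist and Y-linked genes, the KO and WT groups differ in sex at P30, with 3 females and 1 male in KO and 1 female and 3 males in WT. In tissue samples fewer cells of a type and less RNA per cell cannot be told apart. Members differ widely in level, so the precision differs too: Tnip1 rests on 67 to 302 reads per library, Rela on 65 to 497, Nfkb2 on 5 to 29 and Relb on 1 to 31.

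Tnip1 (ENSMUSG00000020400, chromosome 11, 54910785 to 54962917, minus strand, GRCm38) encodes ABIN1, a ubiquitin-binding protein that restrains NF-kB together with A20. It was the member that stood out between genotypes, with a higher mean in KO in 7 of 7 comparisons. In the E14 cortex the KO libraries held 13.94, 15.17, 17.04, 15.51 and 12.95 normalised RPM and the WT libraries 11.17, 13.18, 10.75 and 11.58. 4 of the 5 KO libraries were above every WT library and the lowest KO library was not. The means were 14.9 ± 1.56 (SD, n = 5) and 11.7 ± 1.06 (SD, n = 4), a ratio of 1.28 (log2 fold change 0.33, SE 0.10, limma adjusted p = 0.9998, unadjusted p = 0.00887), which did not pass the threshold of 0.05.

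At P30 the Tnip1 values of the KO amygdala were 29.12, 32.05, 35.3 and 30.66, against 19.56, 26.35, 18.07 and 23.45 in WT. In the frontal cortex they were 33.21, 30.96, 36.79 and 42.24 in KO and 27.69, 23.42, 23.92 and 22.24 in WT. In the hippocampus they were 29.35, 29.44, 22.97 and 31.75 in KO and 20.53, 22.06, 18.6 and 20.36 in WT. Every KO library was above every WT library in each of these regions, most narrowly in the hippocampus, where KO number 3 was close to the highest WT library. A gene with every KO library above every WT library was not rare in single comparisons, at 4.12% of tested genes in the amygdala, 1.37% for the frontal cortex and 1.51% for the hippocampus. The Tnip1 means stood at ratios of 1.45, 1.47 and 1.39. The log2 fold changes were 0.53 (SE 0.12, limma adjusted p = 0.212), 0.53 (SE 0.12, limma adjusted p = 0.454) and 0.45 (SE 0.12, limma adjusted p = 0.223), so that no region passed the threshold on its own at P30.

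At P60 the Tnip1 values of the KO amygdala were 33.7, 33.76, 32.84 and 33.06, against 21.31, 21.34 and 28.18 in WT. In the frontal cortex they were 33.25, 36.35, 40.06 and 37.38 in KO and 18.94, 22.27 and 22.95 in WT. In the hippocampus they were 34.48 and 28.93 in KO and 20.1, 19.6 and 21.5 in WT. The genotypes did not overlap in any region, with the widest gap in the frontal cortex, and the background of such genes was 2.4%, 2.68% and 6.15%. Tnip1 rose 1.72-fold in the frontal cortex, from 21.4 ± 2.15 (SD, n = 3) to 36.8 ± 2.81 (SD, n = 4), with a log2 fold change of 0.76 (SE 0.11, limma adjusted p = 0.00354). That was the one member call among the 7 comparisons, and 0.0312% of tested genes were called there. It was lost without WT replicate 1 (log2 fold change 0.67, limma adjusted p = 0.0691). In the amygdala the log2 fold change was 0.49 (SE 0.11, limma adjusted p = 0.338) and in the hippocampus 0.61 (SE 0.13, limma adjusted p = 0.358), neither past the threshold.

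**Figure D1:**
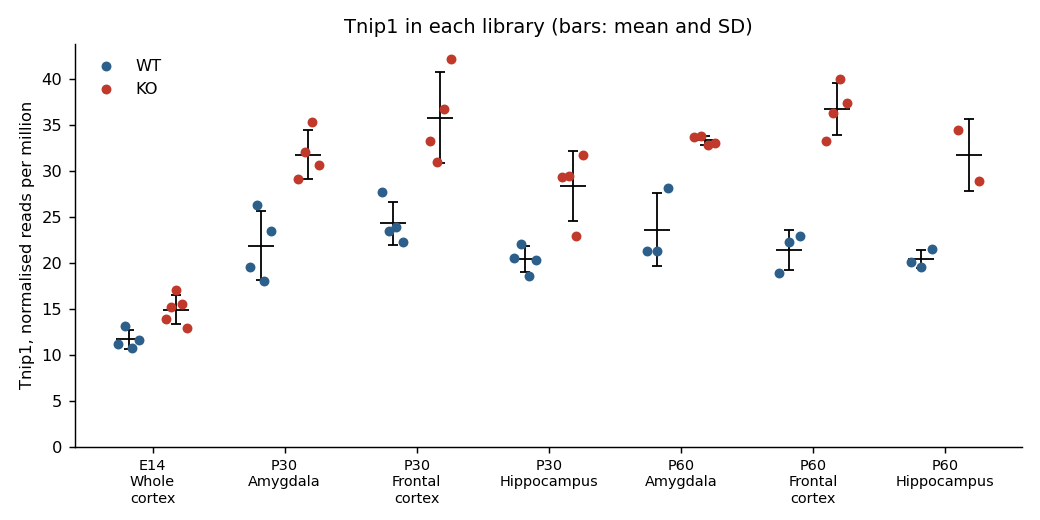
Tnip1 in each of the 52 libraries, in deposited normalised RPM (vertical axis), by age and region (horizontal axis). Points are libraries, WT in blue and KO in red, bars are the mean and SD, and the 3 ages were scaled in separate tables. KO points lie above all WT points in the 6 postnatal settings and overlap them at E14.

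The regions of an age carry the same library numbers, and the sex read from the data was the same across regions for 15 of 15 numbers, although the labels do not say that a number is an animal. After the values above had been seen, Tnip1 was therefore also averaged over regions for each number. At P30 the deviations of same-numbered libraries from their group means correlated weakly between regions, at -0.0993 to 0.237. At P30 the mean log2(value + 1) over 3 regions was 4.98, 4.99, 5.00 and 5.15 in the KO numbers and 4.54, 4.64, 4.40 and 4.52 in the WT numbers. At P60, over the amygdala and frontal cortex, it was 5.11, 5.17, 5.22 and 5.18 in KO and 4.40, 4.51 and 4.72 in WT. The genotypes did not overlap at either age, as for 3.18% and 2.32% of tested genes. The differences were 0.51 at P30 (SE 0.06, limma adjusted p = 0.0137, 0.0263% of genes called) and 0.62 at P60 (SE 0.09, limma adjusted p = 0.0307, 0.0312% of genes called). With sex as a covariate their sizes were 0.51 and 0.63 and the calls were lost (limma adjusted p = 0.118 and 0.0931). Leaving out 1 number at a time, the P30 difference ranged from 0.46 to 0.54 (limma adjusted p from 0.00816 to 0.0835, lost without any KO number, WT 1 or WT 4) and the P60 difference from 0.55 to 0.71 (limma adjusted p from 0.00919 to 0.270, lost without any KO number, WT 1 or WT 2).

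The KO minus WT difference of Tnip1 did not differ detectably between regions. The genotype by region interaction gave a limma adjusted p = 0.990 at P30 and a limma adjusted p = 1.00 at P60. No member passed this test at either age, and 0% of all tested genes did. At an unadjusted p under 0.05 it was 1 member at P30, Tnip2 (limma adjusted p = 0.967), against 4.59% of genes, and 0 members at P60, against 2.16%.

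Tnip1 lies 11.54 Mb from the deleted Mir146 gene on the same chromosome, and other genes of that stretch differed between genotypes too. The 5 genes named next were chosen after their values were seen. Of 18687 genes tested at both postnatal ages, 2 had every KO library above every WT library in all 6 postnatal comparisons (0.0107%), Tnip1 and Lyrm7. 3 had every KO library below every WT library in all 6 (0.0161%), Pttg1, 9930111J21Rik2 and Gm2a. All 5 are on chromosome 11, between 0.0488 and 11.7 Mb from Mir146 on the side that holds Tnip1. Genes that separated one way in at least 4 of the 6 were then counted. There were 11 of 221 tested genes within 15 Mb of Mir146 (4.98%) and 0 of 1128 on the rest of chromosome 11. On other chromosomes it was 1 of 17255, Apc on chromosome 18. The window of 15 Mb and the cut of 4 were not part of the planned tests. The regions of an age may come from the same animals, so the 6 comparisons may not be independent. Whether the KO libraries carry another version of the chromosome around Mir146 was not tested. The loss of the miRNA and a position near its gene cannot be told apart for Tnip1 in this design.

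**Figure D2:**
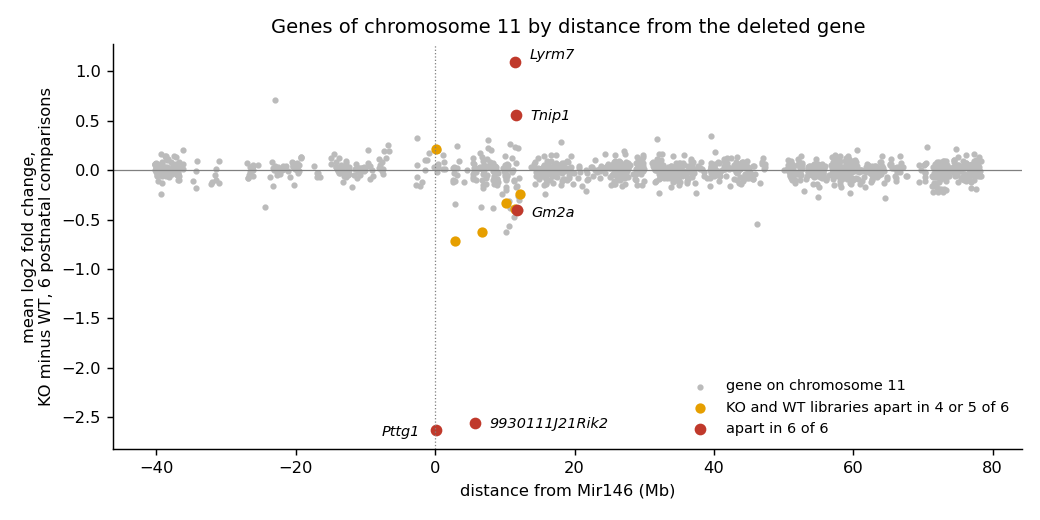
Mean log2 fold change of KO minus WT over the 6 postnatal comparisons (vertical axis) for genes of chromosome 11 by distance from the Mir146 gene in Mb (horizontal axis, dotted line at 0). Red marks genes with KO and WT libraries fully apart in the same direction in 6 of 6 comparisons, orange in 4 or 5 of 6. The red and orange points, Tnip1 at 0.56 among them, all lie within 15 Mb of the deleted gene.

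Within 250 kb of Tnip1, 11 of 20 annotated genes were tested. Lyrm7, which helps assemble complex III of the mitochondria, rose in all 7 comparisons (log2 fold change 0.93 to 1.43, limma adjusted p from 2.1e-05 to 0.0132). Gm2a, the GM2 ganglioside activator, was lower in KO in all 7 and passed in the P30 amygdala (log2 fold change -0.42, limma adjusted p = 0.0426) and P30 hippocampus (-0.59, limma adjusted p = 0.000316). Cdc42se2 fell in the hippocampus at P30 (-0.60, limma adjusted p = 0.00202) and P60 (-0.76, limma adjusted p = 0.00264). Hint1 rose in the P30 amygdala (0.48, limma adjusted p = 0.00256). Gpx3, the next gene past the 3' end of Tnip1, differed in sign between settings and passed in none of the 7.

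Tnip2 encodes ABIN2, a partner of A20 and of NF-kB p105. It showed no genotype difference past the threshold: the log2 fold change ranged from -0.27 to 0.20 over the 7 comparisons. In the P30 frontal cortex the KO libraries held 12.33, 9.81, 9.61 and 9.23 and the WT libraries 12.22, 11.03, 14.31 and 12.73. 3 KO libraries were below all WT libraries and KO number 1 was not (log2 fold change -0.27, SE 0.13, limma adjusted p = 1.00, unadjusted p = 0.0392). In the P60 amygdala every KO library was above every WT library (19.8 to 24.79 against 17.19 to 19.49), with a log2 fold change of 0.20 (SE 0.17, limma adjusted p = 0.999). The same separation was seen for 2.4% of tested genes there.

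Tnfaip3 encodes A20, the ubiquitin-editing enzyme that ends NF-kB signalling. Its KO minus WT difference passed in none of the 7 comparisons and ranged from -0.39 in the P60 frontal cortex to 0.40 in the P30 amygdala. In the P30 amygdala the KO libraries held 6.76, 7.01, 8.39 and 8.22 and the WT libraries 6.19, 4.16, 5.68 and 6.26, with no overlap (log2 fold change 0.40, SE 0.21, limma adjusted p = 0.545). Every KO library was above every WT library for 4.12% of tested genes there. In the P60 frontal cortex 3 of 4 KO libraries, at 4.7 to 5.21, were below the WT libraries at 6.85 to 8.2, and KO number 1 stood at 7.71 (log2 fold change -0.39, SE 0.25, limma adjusted p = 1.00). These 2 comparisons pointed opposite ways.

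Nfkbia and Nfkbib encode IkB alpha and IkB beta, which hold NF-kB in the cytoplasm. Nfkbia differed between genotypes by -0.11 to 0.15 on the log2 scale and Nfkbib by -0.19 to 0.17, with no call. Nfkbib, the one member with a miR-146a seed match in its 3' UTR, had a log2 fold change above 0 in 4 of 7 comparisons. Its values overlapped between genotypes in all 7, as in the P30 frontal cortex (18.71 to 19.66 in KO and 17.24 to 21.81 in WT).

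Among the subunits, Nfkb1 encodes p105, which is cut to p50, and Rela encodes p65, its usual partner. Nfkb1 differed between genotypes by -0.16 to 0.16 on the log2 scale. In the P30 amygdala its KO values of 26.64, 27.42, 25.41 and 22.28 were all below the WT values of 27.45, 27.59, 30.98 and 28.11, the nearest pair being almost equal (log2 fold change -0.16, SE 0.09, limma adjusted p = 0.564). Such genes made up 2.52% of those tested. Rela differed by -0.24 to 0.09, furthest in the P30 hippocampus, where KO held 20.45, 24.63, 22.28 and 26.09 and WT 27.85, 30.05, 30.99 and 22.59 (limma adjusted p = 0.520, unadjusted p = 0.0484). The lowest WT library there lay within the KO range.

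Nfkb2 and Relb encode p100, the precursor of p52, and the partner of p52 in the non-canonical branch. Nfkb2 ranged from 0.75 to 4.06 normalised RPM over all libraries and Relb from 0.13 to 4.34, so differences of the size seen for Tnip1 were harder to resolve (SE 0.19 to 0.29 over both genes). Their log2 fold changes lay between -0.31 and 0.16 for Nfkb2 and between -0.42 and 0.18 for Relb, and neither passed. Relb was too low to be tested at E14.

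The count of members called in KO against WT was 0 of 8 in the E14 cortex by limma, beside 0.049% of all genes, with 1 at an unadjusted p under 0.05, beside 2.89%. At P30 it was 0 of 9 in each region, beside 0.0263% of genes for the amygdala, 0.0158% for the frontal cortex and 0.0316% for the hippocampus. At an unadjusted p it was 1, 2 and 2 members, beside 9.82%, 1.96% and 9.55% of genes. At P60 it was 0 of 9 in the amygdala (0.0208% of genes), 1 of 9 in the frontal cortex and 0 of 9 in the hippocampus (0.0208%). At an unadjusted p it was 1 member in each region, Tnip1, beside 4.07%, 2.24% and 2.04% of genes. Tnip1 had an unadjusted p under 0.05 in all 7, and the other 8 members in 2 of their 55 tests. The median log2 fold change of the members lay between 0.01 and 0.10, beside a median of all tested genes between -0.00387 and 0.00993.

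**Figure D3:**
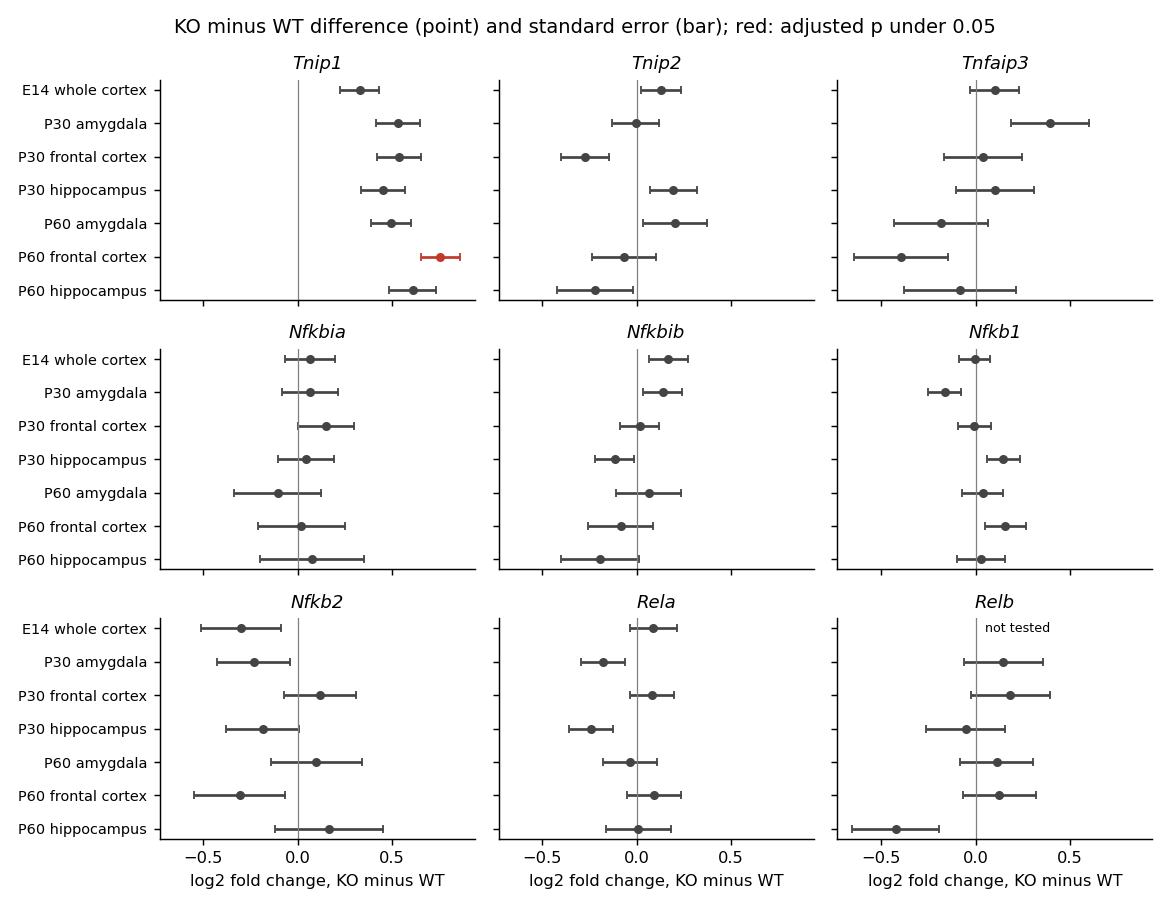
KO minus WT log2 fold change (horizontal axis, points) with its standard error (bars) for the 9 members in the 7 comparisons (rows). Red marks an adjusted p under 0.05, reached by Tnip1 in the P60 frontal cortex. Tnip1 lies right of 0 in every row, and the other members scatter around 0.

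The wider pathway was described by 5 lists: the other subunits and IkB proteins, the IKK complex and upstream kinases, TNF receptor signalling, ubiquitin ligases and deubiquitinases, and NF-kB target genes. None of their genes was called in any KO minus WT comparison, and 10 of 335 tests (2.99%) had an unadjusted p under 0.05. Over all tested genes that share ran from 1.96% to 9.82% by comparison. List medians ranged from -0.18 for TNF receptor signalling in the P30 hippocampus to 0.13 for the target genes in the P60 frontal cortex. In the P30 amygdala Tnfrsf1b, a TNF receptor, stood at 1.79 ± 0.399 in KO and 3.81 ± 1.28 in WT (SD, n = 4 and 4, log2 fold change -0.77, limma adjusted p = 0.212). Ptgs2, a target gene, stood at 16.7 ± 1.49 and 11.9 ± 5.03 there (0.52, limma adjusted p = 0.328). Of the 10 target genes tested in the P30 amygdala, 4 had a log2 fold change above 0, and their median was -0.12. Ikbkb, a kinase of IkB proteins, stood there at 62.1 ± 1.81 and 69.4 ± 4.16 (-0.16, limma adjusted p = 0.375).

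Marker genes of some other cell types leaned one way in the P30 amygdala and in the P30 hippocampus. Tnip1, Tnfaip3 and Nfkb1 separated the genotypes in the P30 amygdala. There 4.12% of tested genes had every KO library above every WT library, and 2.52% had every KO library below. In the amygdala 0 of 10 microglial, 0 of 10 endothelial, 0 of 10 astrocytic, 0 of 10 oligodendrocytic and 0 of 10 choroid plexus markers had a log2 fold change above 0, with medians of -0.31, -0.35, -0.24, -0.54 and -0.94. At an unadjusted p under 0.05 it was 7, 6, 7, 0 and 0 of them, beside 9.82% of all genes. Among the other lists there, 5 of 10 markers of meninges and fibroblasts, 7 of 10 neuronal markers and 0 of 3 blood cell markers were above 0. The summed microglial markers held 191 to 245 normalised RPM in KO and 241 to 332 in WT, with no marker at 0. Endothelial sums were 285 to 324 and 318 to 541, astrocytic sums 6012 to 6649 and 6726 to 9781, and oligodendrocytic sums 1456 to 2370 and 1832 to 7030. The highest oligodendrocytic sum was that of WT number 3. Choroid plexus sums were 16.8 to 25.3 in KO and 21.0 to 1344 in WT, the highest being WT number 1. Without WT amygdala replicate 1 the differences were 0.44 for Tnfaip3, -0.18 for Nfkb1 and 0.49 for Tnip1 (limma adjusted p = 0.544, 0.566 and 0.259). Without WT number 3 in all regions, the P30 amygdala differences were 0.41 for Tnfaip3, -0.12 for Nfkb1 and 0.45 for Tnip1 (limma adjusted p = 0.463, 0.707 and 0.119). In the P30 hippocampus 2 of 10 microglial, 3 of 10 endothelial, 5 of 10 astrocytic and 7 of 10 neuronal markers were above 0. For meninges and fibroblasts it was 1 of 10, and for blood cells 2 of 3. For oligodendrocytes and choroid plexus it was 0 of 10 each (medians -0.79 and -0.73). Their sums were 5069 to 8887 in KO and 5668 to 19703 in WT for oligodendrocytes, and 72.7 to 1250.4 in KO and 46.8 to 5873 in WT for choroid plexus. WT number 3 held the highest of both, and without it the P30 hippocampus differences were 0.41 for Tnip1 and -0.19 for Rela (limma adjusted p = 0.245 and 0.636). In the P30 frontal cortex 10 of 10 oligodendrocytic and 10 of 10 choroid plexus markers were above 0. For meninges and fibroblasts it was 9 of 10 and for neurons 7 of 10. For microglia it was 3 of 10, for endothelium 2 of 10 and for astrocytes 1 of 10. The part of these cell types in the values of Tnip1, Tnfaip3, Nfkb1 and Rela was not tested. In the P60 frontal cortex, where Tnip1 passed, the medians were 0.03 for microglia, 0.16 for endothelium, 0.00198 for astrocytes and -0.10 for oligodendrocytes. No marker of the 8 lists was called by limma in any KO minus WT comparison, and 31 of 483 marker tests (6.42%) had an unadjusted p under 0.05. The share over all tested genes ran from 1.96% to 9.82% by comparison.

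The members were also compared between regions, over both genotypes. Tnip2 had the steadiest pattern, lower in the frontal cortex than in the amygdala and the hippocampus. At P30 its 8 frontal cortex libraries ranged from 9.23 to 14.31 (median 11.6), the amygdala libraries from 15.66 to 23.29 (median 18.7) and the hippocampus libraries from 14.32 to 23.24 (median 19.5). Every frontal cortex library was below every library of the other regions, by a hair for the hippocampus (14.31 against 14.32). The share of all genes that separate regions in this way was not counted at either age. At P30 43.3% of genes were called for the hippocampus against the frontal cortex and 37.3% for the amygdala. Tnip2 rose by 0.73 on the log2 scale in the hippocampus against the frontal cortex (SE 0.09, limma adjusted p = 2.16e-07) and by 0.71 in the amygdala (SE 0.09, limma adjusted p = 7.67e-07).

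At P60 Tnip2 differed the same way, by 0.65 (SE 0.13, limma adjusted p = 0.000753) in the hippocampus and 0.56 (SE 0.12, limma adjusted p = 0.00129) in the amygdala, each against the frontal cortex. The frontal cortex held 11.8 to 16.39, the amygdala 17.19 to 24.79 and the hippocampus 14.13 to 27.54. The frontal cortex libraries were below all libraries of the other regions except KO hippocampus number 1, the lowest hippocampus library. The amygdala and the hippocampus overlapped. The amygdala call was lost in the WT libraries alone (0.43, limma adjusted p = 0.0933).

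Nfkb1 had its highest median in the hippocampus at both P30 and P60. At P30 its hippocampus libraries ranged from 26.8 to 39.08 (median 32.7), against 24.64 to 28.83 in the frontal cortex (median 26.2) and 22.28 to 30.98 in the amygdala (median 27.4). WT hippocampus number 2 was the library that overlapped the frontal cortex. Nfkb1 rose by 0.31 in the hippocampus against the frontal cortex (SE 0.06, limma adjusted p = 0.000183), and fell by 0.29 in the amygdala against the hippocampus (SE 0.06, limma adjusted p = 0.000461). In the WT libraries alone these differences were 0.24 and -0.13 and neither passed (limma adjusted p = 0.0769 and 0.325). At P60 it rose by 0.29 in the hippocampus against the frontal cortex (SE 0.08, limma adjusted p = 0.0107), a call lost without KO hippocampus replicate 2 (0.20, limma adjusted p = 0.128) and in the WT libraries alone (0.36, limma adjusted p = 0.0522). The P60 amygdala (24.16 to 31.52) overlapped the P60 hippocampus (28.42 to 36.78). Nfkb1 was not called between those regions (-0.20 in the amygdala, limma adjusted p = 0.0761).

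Tnip1, Nfkbib and Nfkb2 were called between regions at P30 and not at P60. Tnip1 fell by 0.28 in the hippocampus against the frontal cortex (SE 0.08, limma adjusted p = 0.00635), an average in which KO and WT weigh equally. Nfkbib fell by 0.25 in the hippocampus (SE 0.07, limma adjusted p = 0.00816) and by 0.32 in the amygdala (SE 0.07, limma adjusted p = 0.00104), each against the frontal cortex. The Tnip1 and the hippocampal Nfkbib calls were lost in the WT libraries alone (-0.24 and -0.18, limma adjusted p = 0.160 and 0.306). Nfkb2 fell by 0.36 in the amygdala against the frontal cortex (SE 0.14, limma adjusted p = 0.0418), a call lost in the WT libraries alone (-0.18, limma adjusted p = 0.591) and without any of 11 single libraries.

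In counts, 4 of 9 members were called for the hippocampus against the frontal cortex at P30, beside 43.3% of all genes. For the amygdala it was 3 against the frontal cortex (37.3% of genes) and 1 against the hippocampus (44.1%). At P60 the counts were 2 for the hippocampus against the frontal cortex (32.8%), 1 for the amygdala against the frontal cortex (31.4%) and 0 for the amygdala against the hippocampus (29% by limma, with 2 members at an unadjusted p under 0.05, Tnfaip3 and Nfkb1, against 38.9% of genes). These shares were near or below the background in all 6. Rela, Nfkbia, Relb and Tnfaip3 were called between regions at neither age. These fits do not use the library numbers shared by regions. With them as a replicate block, Tnfaip3 was called at P60, lower in the hippocampus than in the frontal cortex (log2 difference -0.50, limma adjusted p = 0.0368) and higher in the amygdala than in the hippocampus (0.52, limma adjusted p = 0.0323).

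**Figure D4:**
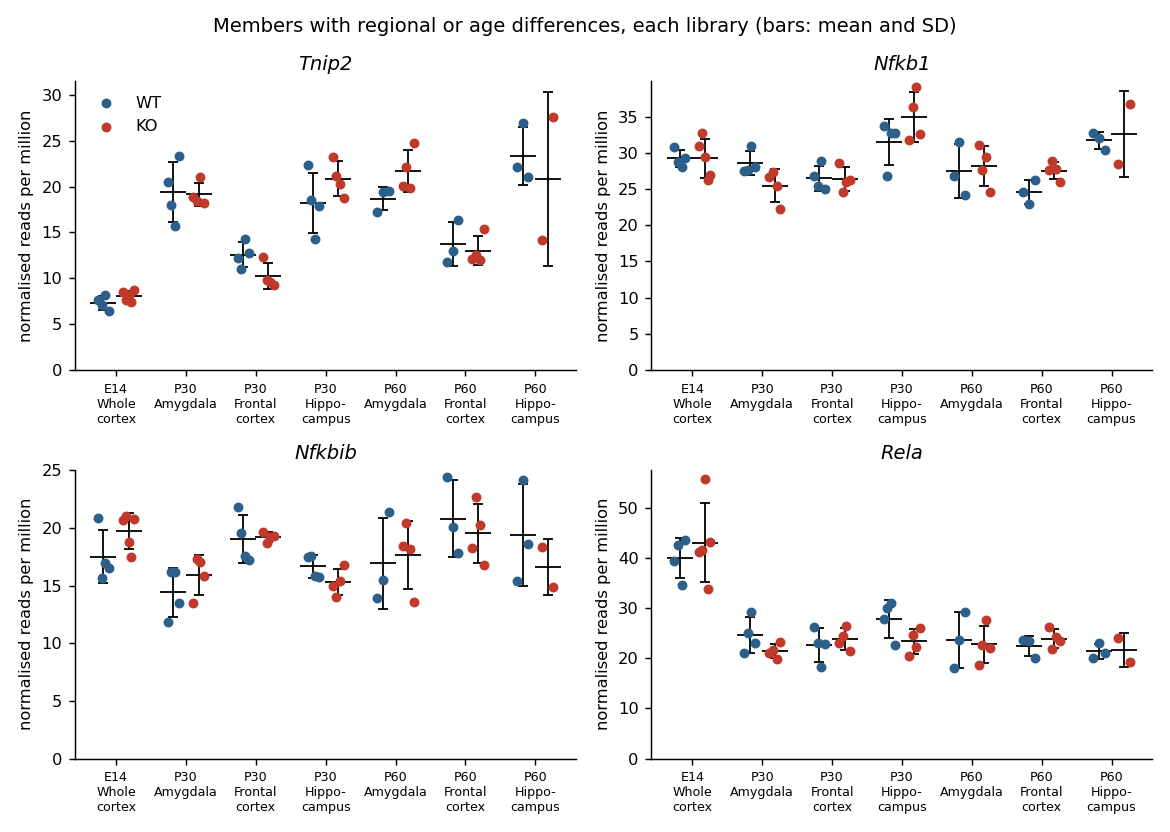
Deposited normalised RPM (vertical axes) of Tnip2, Nfkb1, Nfkbib and Rela in each library by age and region (horizontal axes), WT in blue and KO in red, with mean and SD. The 3 ages were scaled in separate tables. By group mean, Tnip2 is lowest in the frontal cortex and Nfkb1 highest in the hippocampus among the regions at P30 and at P60. Some Nfkb1 libraries overlap between regions.

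To set the ages side by side, all 52 libraries were brought to a joint scale. The E14 whole cortex and the P30 frontal cortex differ in age, in dissection and in table, which cannot be told apart, so these values are a description with no test. Tnip1 stood at 10.2 ± 0.970 in the E14 WT cortex and 25.4 ± 2.31 in the P30 WT frontal cortex (SD, n = 4 and 4), 2.50 times as high, and in KO at 12.8 ± 1.42 (n = 5) and 37.7 ± 5.19 (n = 4), 2.94 times as high. Tnip2, Tnfaip3 and Nfkbia were 2.06, 2.01 and 1.78 times as high at P30 in WT. Relb, from 0.713 ± 0.0928 to 2.19 ± 0.523, was 3.08 times as high. In KO the ratios were 1.55 for Tnip2, 1.97 for Tnfaip3, 1.93 for Nfkbia and 6.04 for Relb, whose E14 level rests on few reads. For each of these 5 every P30 library was above every E14 library in both genotypes. The share of all genes that separate between these ages was not counted, here or for the members below. Such separation is therefore no sign that the members stand apart from other genes.

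Rela went the other way, from 34.9 ± 3.47 at E14 to 23.6 ± 3.53 at P30 in WT, with every P30 library below every E14 library, and Nfkb1 overlapped between the ages (25.5 ± 0.676 and 27.7 ± 1.54). Nfkbib was 1.30 times as high at P30 in WT, with no overlap. Nfkb2 was 1.51 times as high in WT, where its libraries overlapped, and 2.20 times as high in KO, where they did not. Per kilobase of exon, the WT E14 cortex held most Rela (12.9 RPM per kb), Nfkbib (7.17) and Nfkb1 (6.17), and the WT P30 frontal cortex held Nfkbib (9.36), Nfkbia (8.80), Rela (8.70) and Tnip1 (8.38) at close levels, with Nfkb2 (0.769) and Relb (0.992) lowest.

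**Figure D5:**
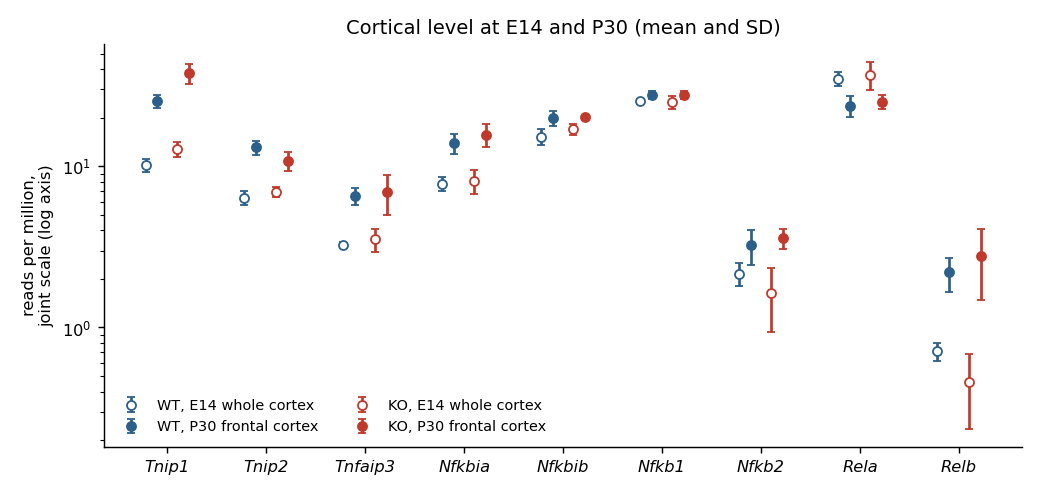
Level of the 9 members (horizontal axis) in the E14 whole cortex (open points) and P30 frontal cortex (filled points), WT in blue and KO in red, in RPM on a joint scale (vertical log axis), with mean and SD. Tnip1 and Relb lie far higher at P30 than at E14, and Rela lies lower.

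The genes whose level followed that of Tnip1 most closely over the 14 group means, by Pearson r of log2(joint value + 1) among 12472 genes, were Olfr277-ps1 (0.917), Zfp354b (0.916), Atp23 (0.906), Ccng1 (0.901) and P4ha2 (0.898). These group means share age, table and genotype. 3 of the 5, Zfp354b, Ccng1 and P4ha2, are on chromosome 11, which holds 7.92% of the ranked genes. Relb was too low to be ranked. Of the other 7 members Nfkbia came closest, with r = 0.861 at rank 80, and Rela was furthest, with r = -0.78.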

How the data were processed

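RNA was extracted from mouse brain tissue and made into stranded poly-A libraries, per the labels' protocols. The submitters' processing notes name mm9, limma, DESeq and edgeR. The deposited tables, 1 for each age, hold normalised values, not counts, with library totals of 945861 to 1039135. All values were whole multiples of 1 read within 0.1 read, which gave the reads per library. The values were treated as RPM, reads scaled to a normalised library size. They were tested as log2(value + 1) in limma 3.58.1 (R 4.3.3, trend and robust) with all groups of an age in 1 fit. A gene was kept if libraries numbering at least the size of the smallest group reached 10 reads (at median depth) and its total reached 15, which left 18350, 18976 and 19239 genes at E14, P30 and P60. P-values were adjusted by Benjamini-Hochberg over these. All 9 members passed at P30 and P60, and all but Relb at E14. Fold changes are on that log scale and understate changes of low genes.

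Members and lists were chosen with earlier results of these data known. Named were all members, genes among the 2 smallest p-values of a list, genes within 250 kb of Tnip1 and its 5 nearest genes by correlation. Positions are from GENCODE M21 (GRCm38), matched by identifier for 48058 of 48526. The joint scale used a trimmed mean of M-values. The test was tested on simulated data. Same-numbered KO and WT libraries deviated together in the P60 amygdala (correlations 0.21 to 0.321 in 3 pairs) and the P60 hippocampus (0.497 to 0.624 in 2 pairs). In the P60 frontal cortex the correlations were 0.0307 to 0.224, with 2 of 3 pairs over 0.1. Same-numbered amygdala and frontal cortex libraries also deviated together at P60 (0.11 to 0.214 in 7 pairs). The pairing at P60 is read from the data, not from the labels. At P30 the pairs of regions were mixed. Amygdala and frontal cortex gave -0.0397 to 0.237, with 4 of 8 pairs over 0.1. Hippocampus and frontal cortex gave -0.0933 to 0.166 (3 of 8), and amygdala and hippocampus -0.0993 to 0.205 (3 of 8). No replicate pair agreed within sampling noise, and p-values measure the spread between these libraries. The design text and the labels name the cortical region and the last age differently, and the labels were followed.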

Additional observations from a re-analysis of the deposited data

Results flagged for a closer look

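In 6 of 90 sets of libraries (9 members in the 10 groups with 4 or 5 libraries) 1 library lay far from the rest by Dixon's test, and chance flags about 1 set in 20. Tnip2 was high in 1 P60 KO frontal cortex library, number 4 (15.34, the others 12.02 to 12.58). Tnfaip3 was high in number 1 of the same group (7.71, the others 4.7 to 5.21). Nfkbia was low in P30 WT frontal cortex number 2 (10.35, the others 14.18 to 14.52). Nfkb1 was low in P30 WT hippocampus number 2 (26.8, the others 32.69 to 33.74). Nfkb2 was high in number 3 of the P30 KO amygdala (3.26, 26 reads, the others 1.64 to 1.88) and in number 3 of the P30 WT amygdala (3.1, 18 reads, the others 2.39 to 2.47). None of these is a Tnip1 value.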

How the results depend on the processing

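Tnip1 was above 0 in KO minus WT in 110 of 110 alternative fits of the 7 comparisons. These fits reuse the same libraries and are not independent. Where every KO library is above every WT library, leaving out a library cannot change the sign. Tnip1 was called in 14 of the 15 alternatives in the P60 frontal cortex and in 0 of those in each other comparison. None of the other 8 members was called in any of theirs. With a replicate block on the number shared by KO and WT, Tnip1 was at 0.50 in the P60 amygdala (limma adjusted p = 0.264) and 0.75 in the P60 frontal cortex (0.0177), and no KO minus WT call changed. Without 1 replicate, the member count fell from 1 to 0 in the P60 frontal cortex, without WT replicate 1, and stayed at 1 otherwise. For the means per number, chosen after seeing the data, it ranged from 0 to 1 at P30 and from 0 to 1 at P60, and was 0 with a sex covariate at both. Between regions, the amygdala against the hippocampus at P30 gave 2 with TMM scaling, 2 with voom on the reads (added after seeing the data), 0 in WT libraries alone and 1 to 2 without 1 replicate (2 without WT hippocampus replicate 4). At P60 it gave 1 with TMM scaling, 1 with voom, 1 with the replicate block shared by regions (Tnfaip3, log2 difference 0.52, limma adjusted p = 0.0323) and 0 to 3 without 1 replicate (3 without KO hippocampus replicate 1, 1 without WT amygdala replicate 2 or WT hippocampus replicate 1). The block also added Tnfaip3 to the P60 calls of the hippocampus against the frontal cortex (-0.50, limma adjusted p = 0.0368), where the numbers do not pair the samples by the check used. The hippocampus against the frontal cortex gave 1 at P30 and 1 at P60 in WT libraries alone, and 1 to 3 at P60 without 1 replicate (1 without KO hippocampus replicate 2). The amygdala against the frontal cortex at P60 gave 0 in WT libraries alone. The cause was not tested, though WT alone leaves fewer libraries. Of 314 alternative counts 285 stayed within 1.5 times the main one, and of 2306 alternative values of single members 2253 kept their side of the threshold, 36 lost a call, 17 gained one and 0 called values reversed. A further 173 uncalled values changed sign. The planned edgeR and DESeq2 fits were not run. The deposited values are normalised and not counts, and voom was run on the recovered reads instead. Depth limits Relb and Nfkb2 most, at 1 to 31 and 5 to 29 reads a library.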
